A study of Mus musculus with 30 samples.

Results

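Blood myeloid cells descended from converted adult endothelium were compared with native blood myeloid cells. The 4 libraries were chosen by their titles, 2 rEC and 2 control libraries of Gr1+ Cd11b+ cells, out of 30 libraries in all. In the study, adult mouse endothelial cells were converted toward blood stem cells with Fosb, Gfi1, Runx1 and Spi1 (FGRS), and the marrow and blood cells labelled as derived from them (rEC) were sorted beside wild type cells. RNA was poly-A selected, read as 51 bp paired ends without strand information, and deposited as FPKM, a fragment count scaled by transcript length and by the library's mapped fragments. The other sorted cells were marrow LKS-SLAM cells (6 libraries), blood B cells (6) and blood CD4 and CD8 T cells (10). Beside them were 3 libraries titled adherent FGRS KLS and 1 that was left without a group. The rEC titles of LKS-SLAM and B cells name a primary of a clone, a secondary, or neither. Those of CD4 and CD8 cells name a secondary or neither. The titles of the 4 myeloid libraries name none of these.

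Both myeloid groups were sorted from blood with a purity mask and taken straight to RNA without culture. The control cells carry the genotype label wild type, and the rEC cells the label derived. The labels describe the derived cells no further: the recipient, the number of animals, any pooling, and the strain, age and sex of either group are not given in the sources used here. Whether the 2 libraries of a group came from different animals is likewise not given, so p-values measure the spread between libraries, which may be technical. Where the Gr1 and Cd11b gates were set in each sort is also not given.

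Cd11b, encoded by Itgam, is an integrin chain of neutrophils and monocytes, and the Gr1 antibody binds Ly6G on neutrophils and Ly6C on classical monocytes. Neutrophils are short-lived granule-bearing phagocytes made in the marrow. Classical monocytes leave the marrow through the chemokine receptor Ccr2 and enter inflamed tissue, while nonclassical monocytes carry little Ly6C, patrol the vessel wall, and need the nuclear receptor Nr4a1 to form.

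The sorted cells had the transcripts of their sort. Itgam stood at 412 and 405 FPKM in the 2 control libraries and at 382 and 412 in the 2 rEC libraries. Ly6c2 stood at 312 and 287 in control and 279 and 295 in rEC cells, and the groups overlapped in both genes. Ly6g was not analysed here. S100a8 and S100a9, the calcium-binding pair that fills the neutrophil cytosol, made up 5.34 and 5.92% of the summed FPKM in control libraries and 6.997 and 12.9% in rEC libraries 1 and 2. Between 10165 and 10418 genes reached 1 FPKM, summed FPKM ran from 510115 to 596726, and the depth estimated from the smallest values differed by at most 1.10 times. Xist, the X inactivation transcript, stood at 15.3 to 28.5 FPKM, and 4 Y-linked genes were at 0.0277 FPKM or less in all 4 libraries.

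The 2 origins lay farther apart on average than the replicates of either. With 1 minus Pearson's r of log2(FPKM + 1) over 14083 genes as the distance, the control libraries lay 0.0079 apart and the rEC libraries 0.0150 apart. The 4 distances between origins ran from 0.0132 to 0.0222 with a mean of 0.0178. The farthest library was rEC replicate 2, at 0.0216 and 0.0222 from the controls, against 0.0132 and 0.0143 for rEC replicate 1. In the same measure the mean distance between origins in CD8 cells was 0.0266, above those within control (0.0092) and within rEC (0.0146). In CD4 cells it was 0.0191, against 0.0193 and 0.0117 within. In B cells (0.0303) and LKS-SLAM cells (0.0860) it was below the mean distance within rEC, which was 0.0514 and 0.141, so that the means between origins cannot be ranked across cell types.

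Which genes differed between derived and native myeloid cells was tested with limma on log2(FPKM + 1) over all 29 grouped libraries, with Benjamini-Hochberg adjustment over the 14083 genes that reached 1 FPKM in at least 2 libraries. At an adjusted p of 0.05, 32 genes were called (0.227% of genes), 9 higher in rEC cells (0.0639%) and 23 lower (0.163%), and the difference reached 1 on the log2 scale in 28 of them. The median difference over all genes was -0.04. The groups failed to overlap for 44.2% of genes, 15.6% with rEC higher and 28.6% with rEC lower, so non-overlap alone marks little. Non-overlap together with a difference of at least 1 on the log2 scale was rarer, at 0.49% of genes higher and 1.05% lower.

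**Figure D1:**
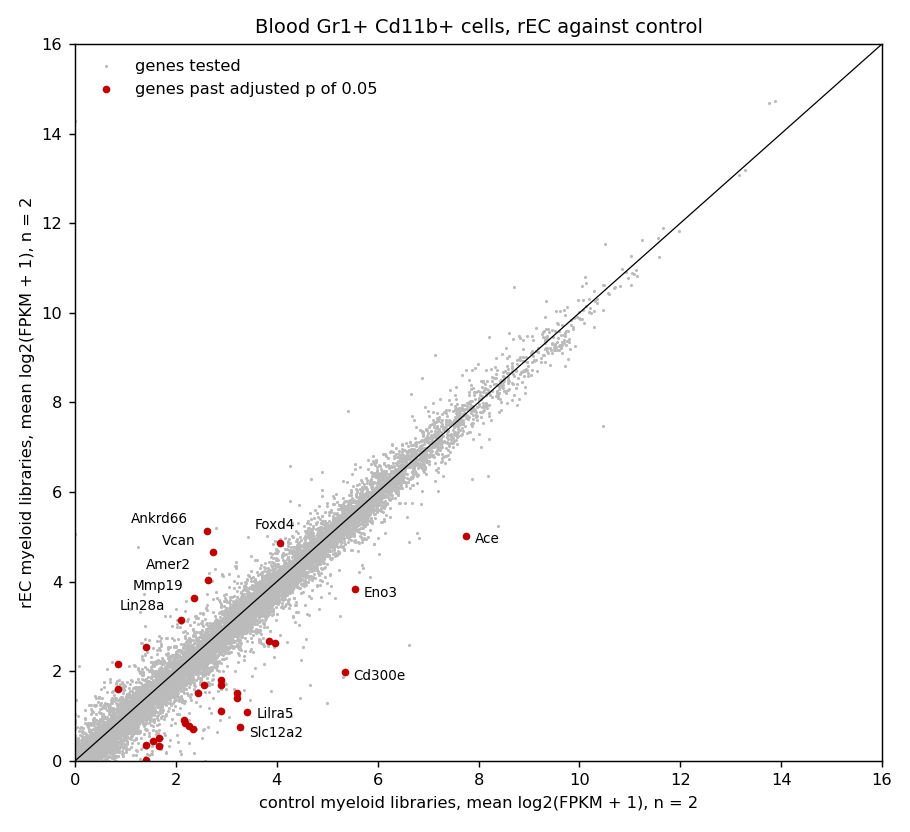
Mean log2(FPKM + 1) of each tested gene in 2 control libraries (horizontal) and 2 rEC libraries (vertical). Grey points are 14083 tested genes, red points the 32 called genes, of which 11 are labelled, and the line marks equal values. Most genes lie along the line, and Ace, Eno3 and Cd300e are the called genes of the highest control level below it.

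The calls rest on a spread pooled over 11 groups with 18 residual degrees of freedom. In the other cell types the rEC groups mix libraries whose titles name a primary, a secondary or neither, so they are not plain replicates. For 14 of the 32 called genes every library of the other cell types was below 1 FPKM, so their pooled error drew on libraries that barely express them. That error was smaller than in the 4 myeloid libraries alone for some of them, such as Amer2, and larger for others, such as Il31ra. In a model of the 4 myeloid libraries alone, with 2 residual degrees of freedom, 1 gene was called and 1787 passed an unadjusted p of 0.05, against 526 in the pooled model. None of the 32 was called there. The genes named next were chosen by one rule, which asked for a call, no overlap between origins and 5 FPKM or more on average in the higher origin. The rule gave 12 lower and 6 higher genes. It left out 2 unnamed gene models, and 12 called genes fell short of its level.

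Ace, Cd300e and Lilra5 were, with Slc12a2, the 4 largest of the 12 named falls. Ace, the angiotensin-converting enzyme (chromosome 11, 105967945 to 105989964, mm10), which also marks nonclassical monocytes in mouse blood, stood at 200 and 227 FPKM in control libraries and at 40.1 and 24.5 in rEC libraries. The rEC libraries were both far below the controls, and the log2 value of Ace fell by 2.72 ± 0.38 (SE here and below; adjusted p = 0.000569 in limma). Cd300e, an activating receptor of monocytes (chromosome 11, 115051917 to 115062177), stood at 35.1 and 44.5 FPKM in controls and 0.671 and 8.22 in rEC. It fell by 3.37 ± 0.49 (adjusted p = 0.00111 in limma), and the rEC libraries differed more from each other than the controls did; the difference was -2.14 without rEC replicate 1 and -4.60 without rEC replicate 2. Lilra5, a leukocyte immunoglobulin-like receptor of myeloid cells (chromosome 7, 4237754 to 4243463), stood at 9.69 and 9.57 FPKM in controls and 0.751 and 1.55 in rEC, and fell by 2.33 ± 0.22 (adjusted p = 5.0e-06 in limma). Each of these 3 calls held with any 1 of the 4 myeloid libraries left out. A pseudocount of 0.1 ended the calls of all named genes but Slc12a2, Eno3 and Tef. For Ace, Cd300e and Lilra5 the adjusted p was then 0.575, 0.153 and 0.153 in limma, and the log2 differences were -2.76, -3.97 and -3.04. In bulk samples such as these, fewer cells of a type and less RNA per cell cannot be told apart.

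The windows of 250 bases before the transcription start of these 3 genes are shown, since they fell together, and that of Vcan, since it rose. They are RefSeq sequences of GRCm38.p6 in the gene's own direction. Capitals mark matches on either strand to the letters GAGGAAG (a core of the myeloid factor PU.1, encoded by Spi1), TTGCNNAA (C/EBP family), AAAGGTCA (NR4A family) and CCNCACCC (KLF family).
Ace, chr11:105967698-105967947, plus strand: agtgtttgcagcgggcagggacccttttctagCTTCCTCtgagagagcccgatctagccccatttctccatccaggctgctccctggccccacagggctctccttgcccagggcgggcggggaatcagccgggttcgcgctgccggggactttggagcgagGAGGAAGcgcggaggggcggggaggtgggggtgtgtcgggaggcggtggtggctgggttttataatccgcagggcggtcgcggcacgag
Cd300e, chr11:115062040-115062289, minus strand: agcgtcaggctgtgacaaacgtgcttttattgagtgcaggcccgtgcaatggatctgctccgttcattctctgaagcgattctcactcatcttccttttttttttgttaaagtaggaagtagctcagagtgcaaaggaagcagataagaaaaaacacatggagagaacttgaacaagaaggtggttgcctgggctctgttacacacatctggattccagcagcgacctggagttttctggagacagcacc
Lilra5, chr7:4237504-4237753, plus strand: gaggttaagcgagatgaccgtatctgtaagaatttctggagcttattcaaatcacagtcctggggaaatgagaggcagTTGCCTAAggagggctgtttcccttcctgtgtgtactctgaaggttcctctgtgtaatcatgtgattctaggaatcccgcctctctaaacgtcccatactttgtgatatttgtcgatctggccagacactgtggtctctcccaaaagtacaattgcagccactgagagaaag
Vcan, chr13:89742513-89742762, minus strand: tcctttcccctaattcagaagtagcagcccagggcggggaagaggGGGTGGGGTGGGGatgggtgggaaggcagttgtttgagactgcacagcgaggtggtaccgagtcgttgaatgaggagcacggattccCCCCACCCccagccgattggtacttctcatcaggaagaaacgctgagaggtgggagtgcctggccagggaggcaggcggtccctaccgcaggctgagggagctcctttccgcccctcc

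The first of the 2 windows of Ace held the PU.1 core at 218 and 89 bases before the start, and that of Lilra5 held the C/EBP letters at 172 bases. The window of Vcan held the KLF letters at 205, 200 and 118 bases, the first pair overlapping. That of Cd300e held none of the 4. Of 32851 mouse promoter windows of the same length, 10.6% held the PU.1 core, 9.56% the C/EBP letters, 1.34% the NR4A letters and 14.9% the KLF letters. Of the 11 windows found for named lower genes, 3 held the PU.1 core, 1 the C/EBP letters and 0 either of the others. Of the 4 windows found for named higher genes, 2 held the KLF letters and 0 any other. A match is a run of letters and no evidence of binding.

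The remaining lower genes had mixed roles. Slc12a2, the sodium-potassium-chloride cotransporter that brings salt into the cell, stood at 7.88 and 9.54 FPKM in controls and 0.316 and 1.19 in rEC, a fall of 2.51 ± 0.32 (limma adjusted p = 0.00035). Of the alternatives run, only the fit of the 4 myeloid libraries alone ended its call (adjusted p = 0.311). Eno3, the beta enolase of glycolysis and a known transcript of nonclassical monocytes (chromosome 11, 70657202 to 70662513), stood at 42.2 and 49.7 FPKM in controls and 12.999 and 13.3 in rEC, and fell by 1.72 ± 0.29 (limma adjusted p = 0.00567). The 2 libraries of each origin lay close together for Eno3, but the limma call ended when a control library was left out (adjusted p = 0.0523 without replicate 1 and 0.133 without replicate 2) and without rEC replicate 2 (0.0743).

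Bcl2a1d, a prosurvival member of the Bcl2 family, stood at 8.33 and 8.08 FPKM in controls and 1.47 and 1.85 in rEC, and fell by 1.80 ± 0.34 (limma adjusted p = 0.0213). Its near-identical copies can share reads, so the level of a single copy is uncertain. Bcl2a1b stood at 15.7, 19.0, 6.89 and 3.98 FPKM and Bcl2a1a at 7.29, 5.02, 3.59 and 2.60 in the same order of libraries, and neither was called. Smc6, a chromosome maintenance ATPase, stood at 13.6 and 13.2 FPKM in controls and 5.91 and 4.86 in rEC, and fell by 1.18 (limma adjusted p = 0.0363). Tef, a clock-controlled transcription factor, stood at 6.16 and 10.96 FPKM in controls and 2.70 and 1.21 in rEC, and fell by 1.70 (limma adjusted p = 0.0363). The calls of Bcl2a1d and Smc6 ended with any 1 myeloid library left out (limma adjusted p of 0.0990 to 0.252 and 0.0510 to 0.615). That of Tef held only with rEC replicate 1 left out; its limma adjusted p was 0.0540 and 0.787 without the first and the second control library and 0.825 without rEC replicate 2. The other 4 were Ces1d (a carboxylesterase), Cyp2ab1 (a cytochrome P450), Ip6k3 (an inositol hexakisphosphate kinase) and Prps1l1 (a phosphoribosyl pyrophosphate synthetase), all with controls between 5.62 and 14.8 FPKM. They fell by 1.78, 1.33, 1.21 and 1.09. Without rEC replicate 2 the differences of Ces1d and Ip6k3 were -0.85 and -0.58, and neither was called. Their calls ended without either control too, and that of Prps1l1 without control replicate 1 or rEC replicate 2. Of these, Cyp2ab1, at 14.5 and 14.8 FPKM in controls and 6.26 and 4.31 in rEC, kept its call with any 1 library left out, at adjusted p up to 0.0247.

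Of the 6 named higher genes, Vcan has a known place among monocytes. Vcan, the matrix proteoglycan versican that classical monocytes express (chromosome 13, 89655312 to 89742509), stood at 6.89 and 4.57 FPKM in controls and 15.95 and 36.5 in rEC, and rose by 1.93 ± 0.41 (limma adjusted p = 0.0462). The limma call ended when a control library was left out (adjusted p = 0.187 without replicate 1 and 0.698 without replicate 2) and without rEC replicate 2 (1), and the antisense models Gm16318 and Gm4117 share its locus in libraries that carry no strand. Amer2, a relative of the Wnt pathway regulator Amer1 (chromosome 14, 60373259 to 60388197), stood at 5.07 and 5.28 FPKM in controls and 19.2 and 12.2 in rEC, and rose by 1.40 ± 0.18 (limma adjusted p = 0.00035). Amer2 was the one named higher gene whose call held with any 1 myeloid library left out.

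The other 4 named rises lost their calls when either control library or rEC replicate 2 was left out, and for Ankrd66 and Mmp19 rEC replicate 2 was well above rEC replicate 1. Ankrd66, an ankyrin repeat gene, stood at 4.72 and 5.48 FPKM in controls and 11.2 and 100.6 in rEC, and rose by 2.53 (limma adjusted p = 0.0363); without rEC replicate 2 the difference was 1.002 (adjusted p = 0.615 in limma) and without rEC replicate 1 it was 4.06. Mmp19, a matrix metalloproteinase whose locus overlaps the antisense gene Tmem198b, stood at 4.22 and 3.97 FPKM in controls and 7.48 and 17.4 in rEC, and rose by 1.30 (limma adjusted p = 0.0211; 0.727 without rEC replicate 2). Lin28a, the RNA-binding protein that blocks let-7 maturation, stood at 3.28 and 3.26 FPKM in controls and 6.12 and 9.80 in rEC, and rose by 1.04 (limma adjusted p = 0.0195; 0.636 without rEC replicate 2). Foxd4, a forkhead factor, stood at 14.8 and 16.6 FPKM in controls and 23.9 and 32.6 in rEC, and rose by 0.79 (limma adjusted p = 0.0316; 0.781 without rEC replicate 2). With either control library left out the limma adjusted p of these 4 genes lay between 0.133 and 0.460.

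**Figure D2:**
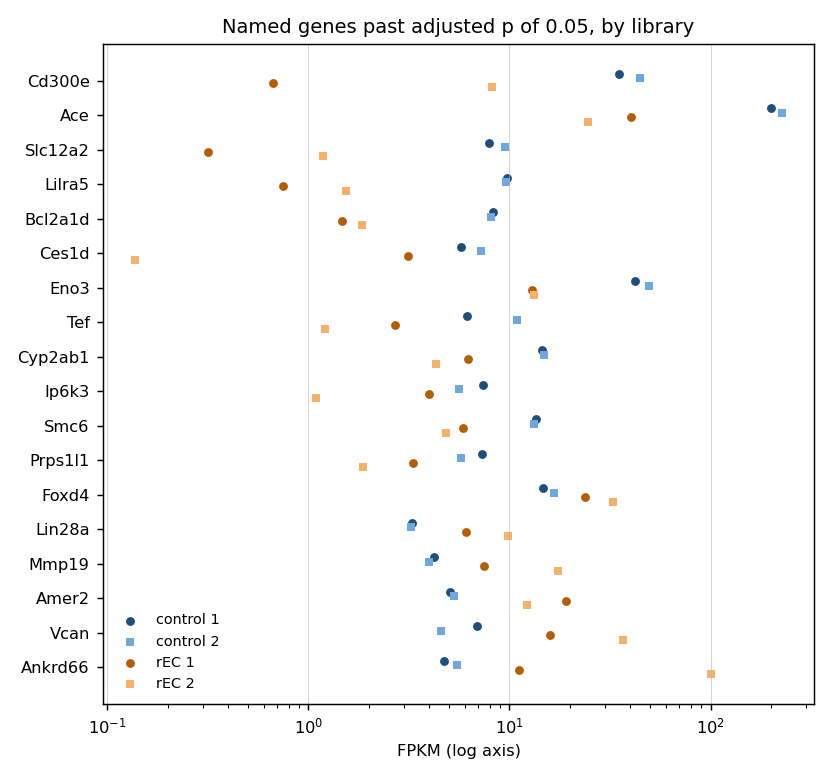
FPKM of the 18 named genes in each of the 4 myeloid libraries, on a log axis, ordered by the size of the log2 difference. Circles are replicate 1 and squares replicate 2, blue for control and orange for rEC. For Cd300e the rEC libraries stand at 0.671 and 8.22, and for Ankrd66 at 11.2 and 100.6, the widest gaps between replicates apart from Ces1d.

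Genes of nonclassical monocytes were lower as a group. Of 14 listed genes, all tested, 2 were called lower (Ace and Eno3, against 0.163% of all genes). Without overlap between origins 12 were lower (28.6% of all genes). Of these, 10 had a log2 difference of 1 or more (1.05% of all genes), 8 after quantile normalisation and 9 after median-of-ratios scaling. The median difference of the list was -1.62, against -0.04 for all genes. Nr4a1, the nuclear receptor that these cells require, stood at 204 and 263 FPKM in controls and 107 and 56.2 in rEC (limma adjusted p = 1). Treml4, a receptor that binds dying cells, stood at 106 and 125 in controls and 54.0 and 50.6 in rEC. Cd36, the scavenger receptor, stood at 23.2 and 25.3 in controls and 1.32 and 3.57 in rEC, a difference of -2.96 (limma adjusted p = 0.131). In each of these genes both rEC libraries were below both controls.

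Further down the same list, Spn (the sialoglycoprotein CD43) stood at 103 and 114 FPKM in controls and 38.4 and 28.5 in rEC. Ear2, a ribonuclease of eosinophils and monocytes, stood at 109 and 115 in controls and 31.2 and 29.4 in rEC. Fabp4, a fatty acid binding protein, stood at 18.7 and 23.7 in controls and 0.794 and 2.88 in rEC. Its regulator Pparg stood at 7.79 and 10.8 against 1.64 and 2.38. The integrin chain Itgal stood at 488 and 479 against 344 and 303. Its relative Itgax stood at 61.6 and 57.3 against 35.8 and 21.5. All 6 were lower in both rEC libraries, and none was called in the pooled fit.

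The exceptions on the list were Cebpb and Cx3cr1. Cebpb, the transcription factor C/EBP-beta, was the only member with rEC above control, at 143 and 135 FPKM in controls and 444 and 643 in rEC (limma adjusted p = 1). Cx3cr1, the fractalkine receptor, overlapped, at 96.4 and 101 in controls and 100 and 45.2 in rEC. How many members were called depended on which libraries supplied the spread. With the blood libraries alone 6 were called, Ace, Cd36, Eno3, Ear2, Fabp4 and Pparg, all lower. Without LKS-SLAM rEC library 2 and B cell rEC library 1, which stood apart from their groups, 5 were called, and with array quality weights 8, of which Cebpb was higher.

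Classical monocyte genes had no common direction. Of 18 tested members 1 was called (Vcan, higher), 4 were higher without overlap, 6 were lower without overlap, and the median difference was -0.10. The shares without overlap, 22.2% higher and 33.3% lower, were not far from the 15.6 and 28.6% of all genes. Ccr2, the receptor for marrow exit, stood at 225 and 207 FPKM in controls and 438 and 409 in rEC, a difference of 0.97 that was not called (limma adjusted p = 1). F13a1, the coagulation factor XIII A chain, stood at 181 and 192 in controls and 279 and 256 in rEC. Csf1r, the receptor for macrophage colony-stimulating factor that both monocyte types carry, stood at 443 and 418 in controls and 350 and 292 in rEC. Ccr2, F13a1 and Vcan were higher without overlap while Csf1r, Klf4 and Ly6c1 were lower without overlap.

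**Figure D3:**
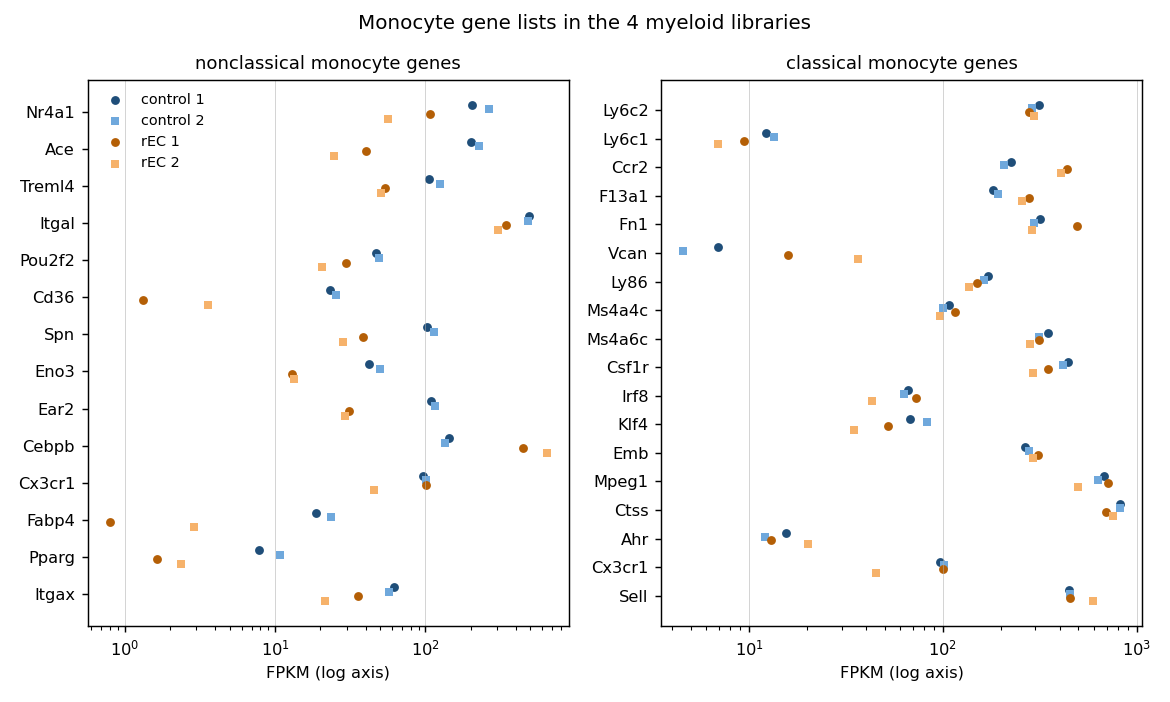
FPKM of 14 nonclassical (left) and 18 classical (right) monocyte genes in the 4 myeloid libraries, on log axes. Circles are replicate 1 and squares replicate 2, blue for control and orange for rEC. On the left 12 genes have both orange points below both blue points, while on the right Vcan, Ccr2 and F13a1 have both orange points above.

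Neutrophil genes were high in both origins and none was called. Of 25 late granule and secretory genes 12 were higher in rEC without overlap (15.6% of all genes), none lower, and the median difference was 0.41 (0 called in limma, 1 at an unadjusted p under 0.05). S100a8 stood at 13112 and 14710 FPKM in controls and 18402 and 37567 in rEC, and S100a9 at 14122 and 16173 against 18486 and 39217. Lcn2, which binds bacterial siderophores, stood at 280 and 313 against 325 and 1509. Retnlg, a resistin-like secreted protein, stood at 1365 and 1558 against 1694 and 5256. In each of these genes rEC replicate 2 stood far above the other 3 libraries, and rEC replicate 1 only a little above the controls. Without rEC replicate 2 the median difference of the list was 0.05, and without rEC replicate 1 it was 0.64.

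Some neutrophil transcripts differed more evenly. Mmp9, the gelatinase stored in tertiary granules, stood at 674 and 808 FPKM in controls and 1028 and 1081 in rEC, and Cd177 at 87.4 and 89.2 against 120 and 129. Lyz2 (lysozyme), shared by neutrophils and monocytes, overlapped at 9849 and 10081 against 10341 and 8522. Camp, Ltf and Ngp, secondary granule genes of marrow precursors, were between 3.38 and 89.5 FPKM in all 4 libraries and overlapped. Among 23 tested neutrophil surface receptors 0 were called in limma (2 at an unadjusted p under 0.05). Without overlap 7 were higher (15.6% of all genes) and 2 lower (28.6%). Csf3r, the G-CSF receptor, stood at 2241 and 1944 against 2517 and 2406, and Cxcr2, which draws neutrophils to chemokines, at 600 and 626 against 616 and 881. The 10 listed primary granule genes had 0 called (0 at an unadjusted p under 0.05), and Prtn3 (proteinase 3) stood at 4.88, 3.61, 5.21 and 22.1 FPKM.

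Transcripts of lymphocytes, which a Gr1+ Cd11b+ sort should lack, were low in all 4 libraries, and those of NK and B cells were lower in rEC. All 13 NK cell and cytotoxic genes were lower in rEC without overlap (28.6% of all genes), 11 by at least 1 on the log2 scale, with a median difference of -1.43. Their summed FPKM was 69.0 and 86.3 in controls and 12.8 and 0.541 in rEC. Ccl5, a chemokine of cytotoxic cells, stood at 27.3 and 34.4 against 4.24 and 0.124, and Gzma (granzyme A) at 18.2 and 18.8 against 3.02 and 0. None of the 13 was called in limma (1 at an unadjusted p under 0.05). Of 14 B cell genes 12 were lower without overlap, with sums of 28.02 and 58.0 against 14.0 and 9.14. Of 16 T cell genes 6 were lower and 1 higher without overlap, with sums of 12.7 and 13.2 against 10.0 and 4.13; none differed by 1 or more on the log2 scale, the median was -0.22, and a share of 6 in 16 is near the 28.6% of all genes. The NK, B and T cell sums moved with origin in the same direction as the monocyte losses, and their part in those was not tested.

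Markers of other blood cells differed in part with origin and in part with the replicate number. Of 14 tested dendritic cell genes 8 were lower in rEC without overlap (28.6% of all genes) and 0 higher (15.6%). The fall was 1 or more on the log2 scale in 4 (1.05% of all genes). The median of the list was -0.42 (limma, 0 called, 4 at an unadjusted p under 0.05). Its summed FPKM was 213 and 217 in controls and 167 and 97.2 in rEC. Cd209a, a lectin of monocyte-derived dendritic cells, stood at 11.9 and 15.9 FPKM in controls and 5.42 and 0.347 in rEC. Bst2, also an interferon target, stood at 84.1 and 86.2 against 69.5 and 40.7, while Zbtb46, a factor of conventional dendritic cells, was at 0.748 or less in all 4. The part of these cells in the monocyte differences was not tested.

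Of 10 eosinophil genes 4 were lower in rEC without overlap (40%, against 28.6% of all genes) and 0 higher (15.6% of all genes). The list had a median of -0.20 (limma, 0 called, 0 at an unadjusted p under 0.05) and sums of 27.1 and 31.8 FPKM against 25.2 and 16.3. Siglecf, a lectin of eosinophils, overlapped at 20.1 and 18.1 against 21.1 and 13.8, and Epx (eosinophil peroxidase) was at 0.0974 or less. The part of eosinophils in the value of Ear2 was not tested. Of 14 tested platelet genes 6 were lower (42.9%, against 28.6% of all genes) and 3 higher (21.4%, against 15.6%) without overlap. Thbs1 (thrombospondin 1) stood at 30.3 and 17.4 against 4.68 and 6.67 (limma adjusted p = 0.362). The erythroid sum was 20.1 and 333 FPKM in controls and 12.1 and 203 in rEC, high in replicate 2 of both origins. Hspa1a and Hspa1b, the inducible chaperones, stood highest in control replicate 2, at 18.5 and 21.3 FPKM, against at most 4.42 in the other 3 libraries. The complement genes C1qa, C1qb and C1qc of macrophages were highest in rEC replicate 2, at 4.33, 16.5 and 7.38 FPKM, against at most 2.57 elsewhere.

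Antigen presentation genes were lower in rEC, with 0 called. Of 11 class II genes 9 were lower without overlap (28.6% of all genes) and 0 higher (15.6%). Their median difference was -0.67 (limma, 1 at an unadjusted p under 0.05). H2-Aa, a class II alpha chain, stood at 288 and 299 FPKM in controls and 176 and 117 in rEC, and Cd74, the invariant chain, at 976 and 961 against 722 and 513. Ciita, the class II transactivator, overlapped at 12.5 and 9.24 against 10.9 and 9.07. Of 18 class I genes 14 were lower without overlap (28.6% of all genes), with a median of -0.34. After median-of-ratios scaling 8 were, against 21% of all genes. B2m, the class I light chain, stood at 3128 and 2971 against 2368 and 2450. Class II genes are also expressed by B cells, whose marker sums were lower in the same libraries; their part was not tested.

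Metabolic lists moved by small steps. Of 27 glycolysis and hypoxia genes 15 were higher in rEC without overlap (15.6% of all genes) and 2 were lower (28.6%). The median difference was 0.36 (limma, 0 called, 5 at an unadjusted p under 0.05). Aldoa (aldolase A) stood at 344 and 359 FPKM in controls and 420 and 695 in rEC, and Pkm (pyruvate kinase) at 563 and 566 against 650 and 990. The same enzymes were highest in rEC replicate 2, the library of the highest S100a8 and S100a9. Of 24 cholesterol genes 16 were lower without overlap (28.6% of all genes) and 0 higher (15.6%). Their median was -0.37 (limma, 0 called, 6 at an unadjusted p under 0.05). Cyp51 (lanosterol demethylase) stood at 6.21 and 7.07 against 3.11 and 2.93, and Idi1 (isopentenyl diphosphate isomerase) at 9.66 and 8.86 against 3.58 and 3.99, with the libraries of each origin close together. Both were called with the blood libraries alone.

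Of 52 cytosolic ribosomal protein genes 43 were lower in rEC without overlap (28.6% of all genes) and 1 higher (15.6%). Their median was -0.24 (limma, 0 called, 1 at an unadjusted p under 0.05). Their summed FPKM was 29055 and 31033 in controls and 24601 and 26454 in rEC. After median-of-ratios scaling 19 were lower without overlap, where 21% of all genes were. After quantile normalisation 44 were, and 10 were called, 9 of them lower.

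The 4 conversion factors were not called. Spi1, which encodes PU.1 and is natively high in myeloid cells, stood at 675 and 631 FPKM in controls and 627 and 823 in rEC. Fosb stood at 19.8 and 27.0 against 13.7 and 5.47, Runx1 at 12.7 and 10.9 against 14.5 and 13.2, and Gfi1 at 0.646 and 0.750 against 0.426 and 0.0825. Only Spi1 overlapped; Runx1 was higher and Fosb and Gfi1 lower in rEC. These values cannot tell vector from native transcripts. Among the other immediate early genes Egr1 stood at 6.66 and 15.7 against 2.44 and 2.98, Jun at 39.9 and 66.4 against 17.6 and 20.2, and Jund at 192 and 183 against 327 and 317, with 0 of 26 called in limma (0 at an unadjusted p under 0.05). Of 22 endothelial genes 7 were at 0 in all 4 libraries, 19 were tested and 0 called in limma (1 at an unadjusted p under 0.05), and their summed FPKM was 29.5 and 27.9 in controls and 19.5 and 19.0 in rEC. Cell cycle genes (40) had a median of -0.02 and 0 called (0 at an unadjusted p under 0.05).

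Of 19 tested clock genes 1 was called lower (Tef), 10 were lower without overlap (28.6% of all genes) and 3 higher (15.6%). Per1, a clock repressor, stood at 85.4 and 48.3 FPKM in controls and 17.8 and 31.2 in rEC, and Nr1d2, a REV-ERB repressor, at 3.82 and 5.35 against 1.62 and 1.07. Of the higher ones, Nfil3, a repressor that opposes Tef at shared sites, stood at 46.3 and 42.3 against 48.6 and 98.8, and Cry1 at 11.8 and 13.9 against 15.8 and 15.5. Of 16 tested Bcl2 family genes 1 was called lower (Bcl2a1d). Bcl2 itself, the founding survival factor, stood at 4.29 and 5.39 against 0.379 and 0.858 (limma adjusted p = 0.155), and Mcl1, on which neutrophils rely, at 765 and 808 against 1008 and 1081. The lists that follow had no call in limma. Interferon-stimulated genes (36) had a median of -0.21, oxidative phosphorylation genes (37) -0.10, integrins and adhesion partners (21) -0.20 and histone cluster genes (18) -0.36. Phagocyte oxidase subunits (8) had a median of 0.14, Toll-like receptors and adaptors (21) -0.06 and lysosomal genes (31) 0.02. With the blood libraries alone Per1, Nr1d2, Bcl2 and Bcl2a1a were also called lower. Of the 41 lists, 37 had 0 members called, and 5 of 796 tested memberships were called in all.

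**Figure D4:**
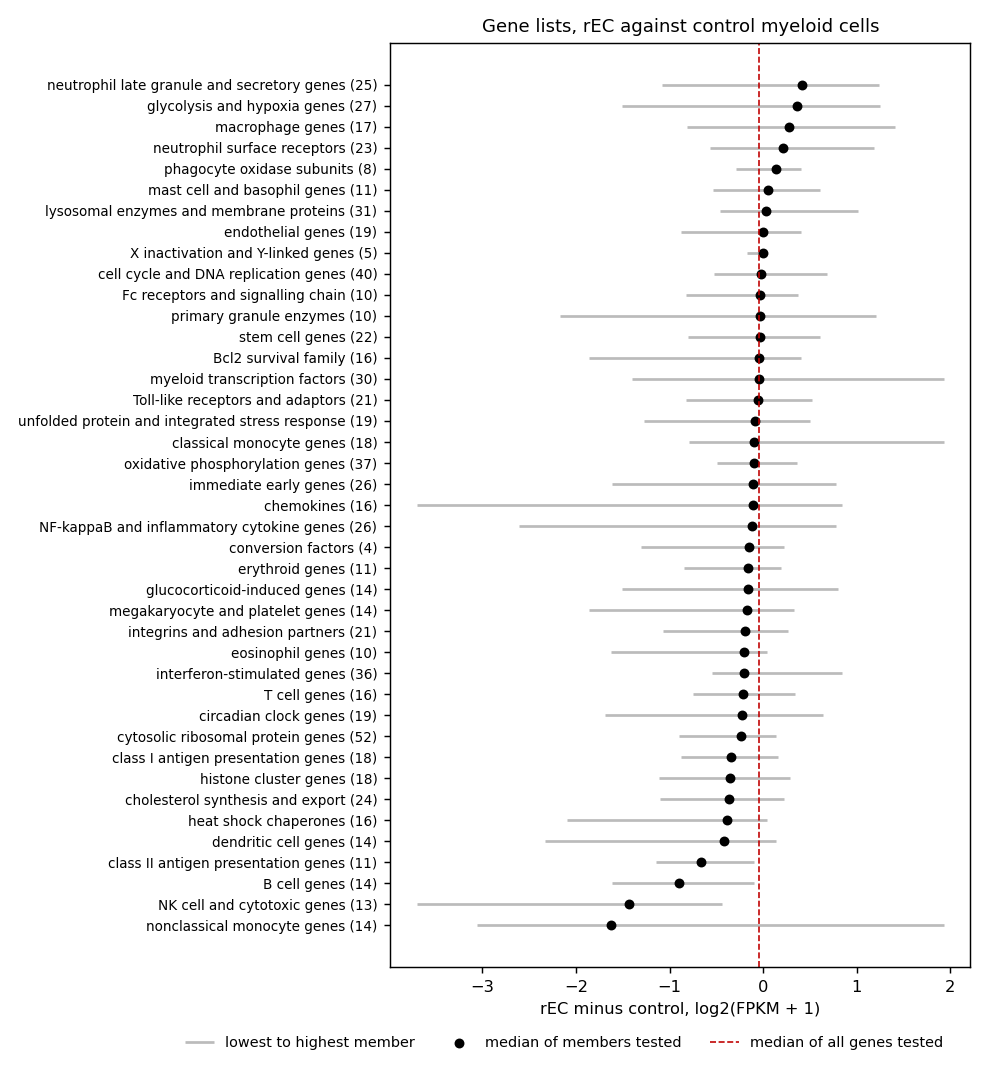
Median (points) and range (grey lines) of the rEC minus control difference in log2(FPKM + 1) for 41 gene lists, with the number of members tested in brackets. The dashed line marks the median of all genes, -0.04. The medians of nonclassical monocyte genes (-1.62) and NK cell and cytotoxic genes (-1.43) are the lowest, and that of late granule genes (0.41) is the highest.

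A few transcripts outside the lists and the naming rule were chosen after their values were seen. Rn45s, the precursor of ribosomal RNA, stood at 1428 and 1396 FPKM in controls and 158 and 196 in rEC, and Malat1, a nuclear long RNA, at 388 and 218 against 110 and 59.5. Both moved with origin in all 4 libraries, and their part in the other differences was not tested. Lars2, a mitochondrial tRNA synthetase, stood at 335 and 332 against 27.9 and 48.9. Hpgd, which inactivates prostaglandins, stood at 85.2 and 112 against 31.0 and 0.133, and Scand1, a SCAN domain gene, at 46.1 and 37.7 against 206 and 238. None of these was called (limma adjusted p of 0.0730 for Scand1, 0.0989 for Hpgd and 0.533 or more for the others). Cd83, an activation marker, stood at 6.53 and 12.1 against 0.851 and 0.439 (limma adjusted p = 0.0838). Rn45s and Scand1 also moved outside myeloid cells. Rn45s stood at 1914 to 1949 FPKM in CD8 controls and at 5458, 136 and 173 in CD8 rEC libraries. In CD4 cells it stood at 3422 and 3081 against 5340 and 216, and Lars2 split the same rEC libraries. Scand1 was higher in every B, CD4 and CD8 rEC library than in the controls of its cell type. It overlapped in LKS-SLAM cells. In CD4 and CD8 cells the low rEC libraries of Rn45s and Lars2 were those titled secondary. The secondary libraries of B cells (276 FPKM) and LKS-SLAM cells (460) were also the lowest of their rEC groups in Rn45s. The titles of the myeloid rEC libraries do not say whether they were secondary. Why the libraries differed was not tested.

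The single gene called in the fit of the 4 myeloid libraries was Gm25500, a small nucleolar RNA model (chromosome 9, 15312552 to 15312674) inside Taf1d. It was listed at 0 in both control libraries and at 20134 and 19464 FPKM in the rEC libraries, 3.82 and 3.26% of their summed FPKM. In the pooled fit its adjusted p was 1. Among the other 25 grouped libraries it was listed at 0 in 15 and above 0 in 10, in both origins.

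By base composition, the median difference was -0.07 in the fifth of genes with the lowest GC content, -0.06, -0.04 and -0.03 in the next, and 0 in the fifth with the highest, over 96.2% of the genes tested. In rEC replicate 2 alone it ran from -0.13 to -0.02. The part of base composition in any gene's difference was not tested.

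Whether these differences were particular to myeloid cells was asked with an interaction, the myeloid origin difference minus the mean of the origin differences of LKS-SLAM, B, CD4 and CD8 cells. It called 27 of 14083 genes (0.192%), 9 higher and 18 lower, of which 24 were among the 32 above. A gene that the other cell types barely express can differ little there, so its interaction largely restates the myeloid difference. In those cell types the highest FPKM was 0.444 for Amer2, 0.755 for Mmp19, 1.28 for Lilra5, 1.36 for Lin28a and 1.75 for Mcf2l. For these genes the test cannot decide the question. Slc12a2 and Eno3 were expressed there, at up to 10.3 and 33.5 FPKM. By the same level rule the 5 largest on the lower side were Cd300e (-2.89 ± 0.54, limma adjusted p = 0.0194), Slc12a2 (-2.43 ± 0.34, 0.00174), Lilra5 (-2.22 ± 0.24, 5.6e-05), Ace (-2.02 ± 0.41, 0.0355) and Eno3 (-1.89 ± 0.32, 0.00892). The 5 on the higher side were Fpr2, Amer2, Mmp19, Lin28a and Mcf2l. Of these named genes only Slc12a2 and Eno3 kept the interaction call with a pseudocount of 0.1. With a filter of 5 FPKM only Amer2, Slc12a2, Lilra5 and Eno3 kept it. Quantile normalisation ended it for Fpr2, Cd300e and Ace (limma adjusted p = 0.165, 0.0507 and 0.0582). The blood libraries alone ended it for Fpr2 and Ace (limma adjusted p = 0.0588 and 0.0958). Lilra5, Slc12a2 and Amer2 kept this call with any 1 myeloid library left out, while Mcf2l lost it each time (limma adjusted p of 0.0900 to 0.412). Ace, Eno3, Fpr2, Lin28a and Mmp19 lost it without either control library or without rEC replicate 2, and Cd300e without either control library or without rEC replicate 1, with adjusted p up to 0.835 in limma.

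Ace and Cd300e were not low in every other cell type. In control CD8 cells Ace stood at 5.08 to 19.7 FPKM and Cd300e at 2.95 to 6.81, against at most 0.495 and 0.432 in rEC CD8 cells, and the origin difference there was -3.22 for Ace and -2.24 for Cd300e. Eno3 stood at 23.3 to 28.4 FPKM in control and 23.2 to 32.9 in rEC CD8 cells, with no such loss. Fpr2, a formyl peptide receptor of neutrophils, stood at 150 and 123 FPKM in control and 163 and 291 in rEC myeloid cells, a difference of 0.68 that was not called by itself (limma adjusted p = 0.837). Its interaction (1.46 ± 0.27, limma adjusted p = 0.0194) also holds the origin differences of -2.04 in LKS-SLAM and -1.28 in CD8 cells. The interactions of Lin28a and Mcf2l likewise hold LKS-SLAM differences of -0.83 and -0.55. The myeloid difference of Mcf2l, 0.90, was also not called by itself (limma adjusted p = 0.0744). The myeloid libraries of both origins were alike in sex-linked genes, but not those of 3 other cell types. In CD4 cells Ddx3y stood at 38.9 to 40.3 FPKM in control and at most 0.01005 in rEC, so that origin and sex cannot be told apart there. In LKS-SLAM control it ran from 0.138 to 31.3 against at most 0.906 in rEC, and in CD8 cells from 32.7 to 37.6 in control against 0 to 33.8 in rEC, so there the sex-linked genes followed origin in part.

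**Figure D5:**
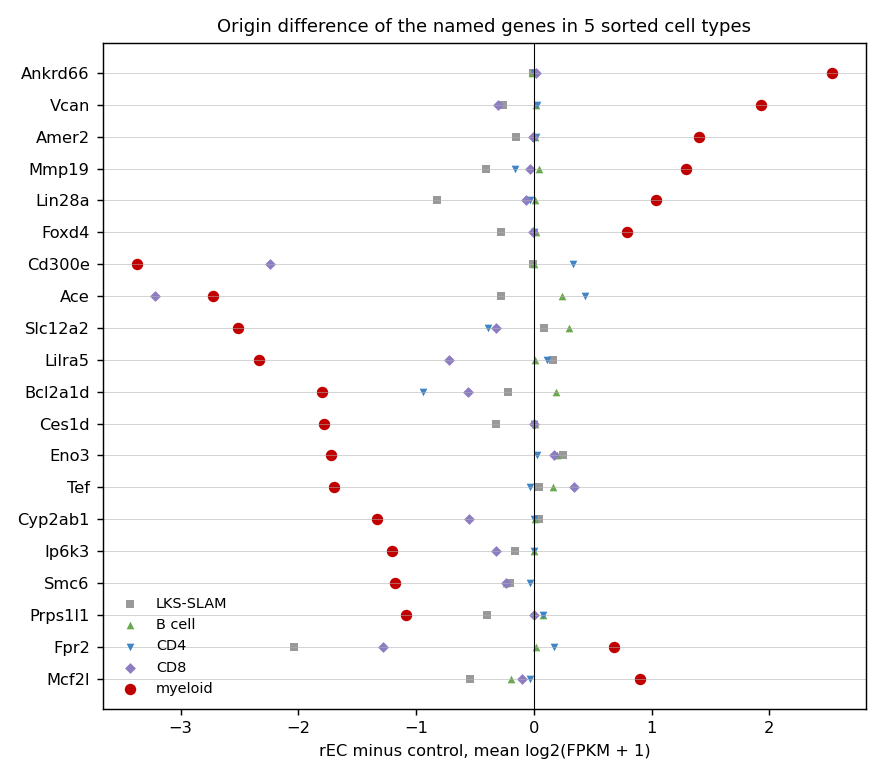
The rEC minus control difference in mean log2(FPKM + 1) of 20 named genes in 5 sorted cell types. Large red circles are myeloid cells (n = 2 and 2) and small symbols the other cell types. For Ace the CD8 difference (-3.22) is larger than the myeloid one (-2.72). For the named lower genes other than Ace and Cd300e, Eno3 and Tef among them, only the myeloid point is below -1.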

How the data were processed

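Per the submitters' processing notes the reads passed through tools including TopHat2 2.1.0 and Cufflinks 2.2.1 on the mm10 build, besides Trimmomatic 0.36, bcl2fastq 2.17 and FastQC 0.11.5. Their order and settings, and any normalisation between libraries, are not given in the sources used here. The deposited values are FPKM for 23060 gene symbols, 1 value per library, so depth in reads is unknown and no counting interval is given. Low values have the least precision. Non-stranded libraries are stated in the labels' protocols, so genes that overlap on opposite strands cannot be told apart.

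Differences were computed with limma 3.58.1 (R 4.3.3) after adding 1 FPKM and taking log2; variances were moderated along a trend with mean level, in 1 model with a mean for each of 11 groups of 29 libraries. This understates changes of low genes. All limma tests were two-sided and adjusted by Benjamini-Hochberg over 14083 genes, apart from the fits with a changed filter. Those were adjusted over 11599 genes with the filter of 5 FPKM, 19302 with no filter and 10490 with the filter on myeloid libraries. A B220+ library whose title names clone 47G1 was left without a group. The 41 gene lists (824 memberships, 815 in the table) and the comparison were chosen with earlier results of these data known; no list was tested as a set. Named genes are called genes without overlap at 5 FPKM or more in the higher group, up to 15 a side, up to 6 called or else the 3 highest members of each list, the sorting markers, the conversion factors, the sex-linked genes and the 5 largest interactions a side. Other members of lists were named after their values were seen. Positions are GENCODE vM21 on mm10, matched by symbol. Promoter windows are RefSeq's, found for 13 of 18 named genes. The model was tested on simulated data with independent noise and 1 spread per gene in all groups. Such data cannot speak to a spread that differs between cell types or to effects shared within a library. Plots were made with matplotlib 3.10.9 in Python 3.11.15.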

Additional observations from a re-analysis of the deposited data

Results flagged for a closer look

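The origin difference in myeloid cells departed from the mean of the other 4 cell types, by the interaction test in limma, in 27 genes. The named ones on the higher side were Fpr2 (1.46), Amer2 (1.43), Mmp19 (1.43), Lin28a (1.27) and Mcf2l (1.12), all on the log2(FPKM + 1) scale. Those on the lower side were Cd300e (-2.89), Slc12a2 (-2.43), Lilra5 (-2.22), Ace (-2.02) and Eno3 (-1.89). Amer2, Mmp19, Lin28a, Mcf2l and Lilra5 were low in the other cell types, so their interactions largely restate the myeloid difference. Mcf2l, a guanine nucleotide exchange factor, stood at 3.48 and 3.82 FPKM in control and 7.86 and 7.48 in rEC myeloid cells, with the libraries of each origin close together. Its myeloid difference by itself was not called (limma adjusted p = 0.0744).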

How the results depend on the processing

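The numbers of genes called moved with the settings, while the median over all genes stayed between -0.07 and 0. Against 9 higher, 23 lower and 27 in the interaction, a pseudocount of 0.1 gave 0, 6 and 3, a filter of 5 FPKM 1, 6 and 4, and no filter 38, 55 and 70. Quantile normalisation gave 25, 42 and 43, median-of-ratios scaling 16 higher, the blood libraries alone 91, 153 and 133, and array quality weights 134, 234 and 254. Without LKS-SLAM rEC library 2 and B cell rEC library 1 they were 30, 75 and 55. The 4 myeloid libraries alone gave 1 higher and 0 lower. Leaving out 1 myeloid library gave 3 to 34 higher, 10 to 44 lower and 7 to 71 in the interaction, with the most calls without rEC replicate 1. In all, 32 genes were called, 6 with the pseudocount, 7 with the filter of 5 FPKM, which ended 11 of the 18 named calls, 93 with no filter, 67 after quantile normalisation, 49 after median-of-ratios scaling, 244 with blood libraries alone, 368 with weights, 105 without the 2 libraries that stood apart, 1 with myeloid libraries alone, and 13 to 78 with 1 myeloid library left out. With the replicate number as a block, 14 were higher of 40 in all and the 18 named genes kept their calls. Same-numbered libraries deviated together with r = 0.08 across genes, so the numbers were not taken as pairs. The 32 genes kept their calls with the blood libraries alone, without the 2 libraries that stood apart, with array weights, robust moderation, median-of-ratios scaling, no filter, the filter on myeloid libraries and the block. The interaction with blood libraries alone used B, CD4 and CD8 cells. No interaction could be had from the 4 myeloid libraries alone.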
